A study of Mus musculus with 9 samples.

Results

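The Dpy19l family includes multipass membrane proteins of the endoplasmic reticulum that attach a mannose to the carbon ring of tryptophan in secreted and membrane proteins. This linkage, C-mannosylation, uses dolichol phosphate mannose as the sugar donor. Its best known targets are thrombospondin type 1 repeats, as in late complement components and ADAMTS proteases, and the WSXWS box of type I cytokine receptors. Much of the work on which enzyme serves which target was done with human, insect and nematode proteins, and in mice Dpy19l2 is known for its part in shaping the sperm head. The listed genes were Dpy19l1, Dpy19l3 and Dpy19l4, taken by symbol, 3 of 22701 genes in the table. Dpy19l3 was singled out because of its level in livers lacking HP1α and HP1γ, so its values against WT or in those livers are given as a description with no test. Dpy19l1 and Dpy19l4 were included as its paralogs, and whether each listed gene encodes an active transferase was not tested here. All 3 averaged 10 or more normalised counts, as did the 13845 genes that were tested.

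Each of the 9 samples was a liver from a mouse 5 weeks old, with C57BL/6, 129svPas given as the strain. HP1ag_KO (3 livers) had the genotype HP1a-/-, HP1gliver-/-, that is, no HP1α and a liver deletion of HP1γ. HP1ab_KO (1 liver) was HP1a-/-, HP1bliver-/-, and HP1a_KO (2 livers) was HP1a-/-. WT (3 livers) was labelled WT and titled as control, and whether these mice carried conditional alleles is unknown here. All 3 mutant groups were labelled as lacking HP1α. HP1 proteins bind methylated histone H3 in heterochromatin, and the series title concerns their role as tumour suppressors in liver. What drives the liver deletions is not given in the sources used here.

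HP1a_KO replicate 1 was the shallowest library with 16266423 reads in genes, while the others had 26375545 to 36161177. Each targeted gene was lower in every liver labelled as lacking it than in every WT liver. Cbx5 (HP1α) had 743 ± 75.8 normalised counts in HP1ag_KO, 663 in HP1ab_KO and 538 ± 53.3 in HP1a_KO, against 1235 ± 279 in WT. Cbx1 (HP1β) had 217 in HP1ab_KO and 917 ± 146 in WT, and Cbx3 (HP1γ) 349.7 ± 27.5 in HP1ag_KO and 605 ± 59.7 in WT (SD, here and below, with n = 3 for HP1ag_KO and WT and n = 2 for HP1a_KO). Cbx1 was also lower in HP1a_KO, at 457 and 771, than in every WT liver (803 or more), as were 15.1% of tested genes. In HP1ag_KO and WT its libraries overlapped. HP1ag_KO replicate 1 (-44.8) and WT replicate 1 (50.3) lay at the ends of the second principal component and far from the rest of their groups. On the first component the ends were HP1ag_KO replicate 2 (-44.7) and HP1a_KO replicate 1 (41.2). HP1ag_KO replicates 1 and 3 lay at 2.84 and -15.0 there. Summed markers of 5 hepatocyte genes ranged from 3224459 to 3415891 in HP1ag_KO, against 2644359 to 3443492 in WT. In bulk liver, fewer cells of a type and less RNA per cell cannot be told apart. No label gives the litter or the sequencing run of a liver, so the part of either in the differences was not tested. The limma p-values set each group difference against the spread between livers within groups, pooled over all 4 groups.

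Dpy19l3 (ENSMUSG00000043671) is a protein-coding gene on chromosome 7, 35685165 to 35754454, minus strand (GRCm38), and no other annotated gene overlaps it. Dpy19l1 (ENSMUSG00000043067) lies on chromosome 9, 24411776 to 24503140, minus strand, 53.9 kb from Dpy19l2. Dpy19l4 (ENSMUSG00000045205) lies on chromosome 4, 11261315 to 11322137, minus strand. An antisense gene model overlaps Dpy19l1, and a small nuclear RNA and a long noncoding RNA overlap Dpy19l4, and since the strand setting of the counting is not given in the sources used here, a few of their reads may be counted with these genes. The 250 bases before the annotated start of Dpy19l3 and of Dpy19l1 are shown because these paralogs had unlike patterns across the livers. Capitals mark GC boxes (GGGCGG or CCGCCC) and the CCAAT box (CCAAT or ATTGG), and the sequences are from RefSeq on GRCm38.p6, where 2 of the 3 genes had an entry. They lie at chr7:35754455-35754704 and chr9:24503141-24503390, both on the minus strand.
Dpy19l3: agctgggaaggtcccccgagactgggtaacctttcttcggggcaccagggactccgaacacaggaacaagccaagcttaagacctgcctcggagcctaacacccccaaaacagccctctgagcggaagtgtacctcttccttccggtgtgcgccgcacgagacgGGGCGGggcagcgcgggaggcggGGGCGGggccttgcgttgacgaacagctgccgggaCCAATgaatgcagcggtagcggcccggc
Dpy19l1: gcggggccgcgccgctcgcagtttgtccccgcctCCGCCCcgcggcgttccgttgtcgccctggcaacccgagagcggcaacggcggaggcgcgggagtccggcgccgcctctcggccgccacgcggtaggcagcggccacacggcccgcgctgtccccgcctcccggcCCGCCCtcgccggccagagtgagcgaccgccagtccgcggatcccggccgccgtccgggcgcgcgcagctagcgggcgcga
The Dpy19l3 stretch held 21 CpG dinucleotides and a GC content of 65.6%, and the Dpy19l1 stretch 48 and 80.8%, beside a median of 6 and 52.4% over 32851 promoters. GC boxes stood at -86 and -63 from the start of Dpy19l3 on its own strand, where its CCAAT box stood at -28. In Dpy19l1 the GC boxes lay on the other strand at -216 and -81. A GC box on either strand was present in 32.7% of all promoters, a CCAAT box in 33.8% and the TATA box letters TATAAA in 12.4%. TATAAA and its reverse complement TTTATA were in neither stretch.

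Dpy19l3 had its highest levels in HP1ag_KO and its lowest in WT, with the other mutants between them. It had 778, 1343 and 907 normalised counts in HP1ag_KO replicates 1 to 3, 555 in HP1ab_KO, and 308 and 313 in HP1a_KO, against 221, 190 and 297 in WT replicates 1 to 3. Every HP1ag_KO library was above every WT library, and no group overlapped another. Among tested genes, the libraries of HP1ag_KO stood above those of WT in 6.46%, HP1ab_KO above WT in 22.6%, HP1a_KO above WT in 14.7% and HP1ag_KO above HP1a_KO in 17.5%. These values stood on 168 reads in HP1a_KO replicate 1, 199 to 364 in the other HP1a_KO library and in WT, 695 in HP1ab_KO and 854 to 1197 in HP1ag_KO. Means were 1009 ± 296 in HP1ag_KO and 311 ± 3.47 in HP1a_KO, against 236 ± 55.1 in WT, so that HP1ag_KO stood at 4.28 times the WT mean, HP1ab_KO at 2.35 times and HP1a_KO at 1.32 times.

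**Figure D1:**
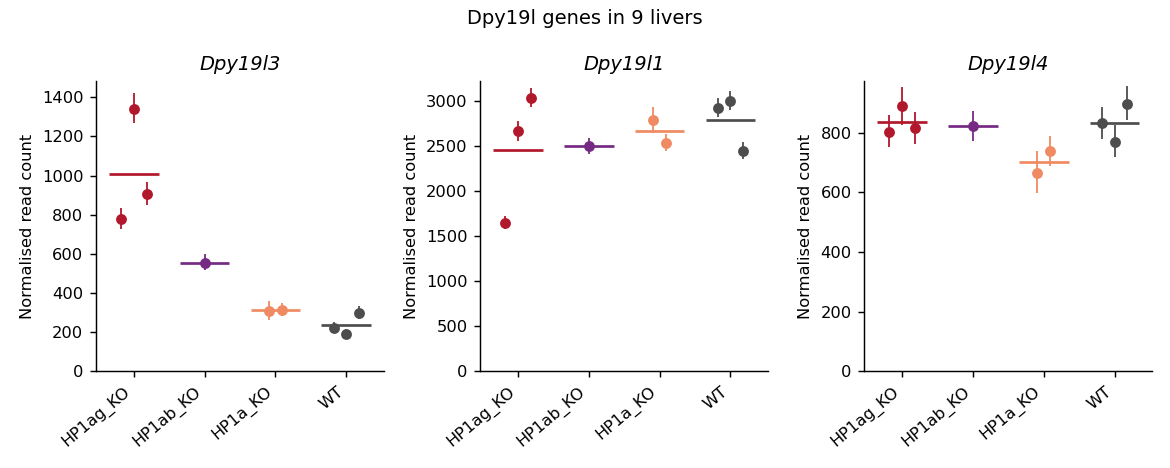
Normalised read counts of Dpy19l3, Dpy19l1 and Dpy19l4 (vertical axes from 0) in each liver by genotype. Points are livers with exact 95% Poisson intervals, which cover counting error only, and bars are group means. Dpy19l3 ran between 778 and 1343 in HP1ag_KO and between 190 and 297 in WT, while the Dpy19l1 and Dpy19l4 groups HP1ag_KO and WT overlapped.

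The order of the groups for Dpy19l3 was HP1ag_KO, HP1ab_KO, HP1a_KO and WT, from high to low. Groups in this order with no overlap were found in 0.0578% of tested genes, and in the opposite order in 0.0506%, which is given as a description because Dpy19l3 was chosen on part of it. The last 2 were close: the lower HP1a_KO library, at 308 (95% Poisson interval 263 to 359), and the highest WT library, at 297 (265 to 331), lay nearer to each other than WT libraries did among themselves. HP1ab_KO, at 555 (515 to 598), was above both HP1a_KO libraries and below the lowest HP1ag_KO library, at 778 (727 to 832). On the log2(value + 1) scale the difference from WT was 2.08 in HP1ag_KO, 1.26 in HP1ab_KO and 0.42 in HP1a_KO. These differences share the WT livers. In HP1ag_KO it ranked 44 from the most positive of 13845 genes. The limma test called 0.0% of genes in each of the 5 comparisons. The deleted genes were among those not called. In HP1ag_KO against WT the limma adjusted p was 0.198 for Cbx3 and 0.430 for Cbx5. In HP1a_KO against WT it was 0.397 for Cbx5. A gene that was not called is thus not shown to be unchanged. Dpy19l3 was 1.66 higher in HP1ag_KO than in HP1a_KO, a comparison that holds the livers it was chosen on.

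In 1 comparison of Dpy19l3 neither mean held HP1ag_KO or WT libraries. In HP1ab_KO it had 555 normalised counts, against 308 and 313 in HP1a_KO. Its log2 difference of 0.84 (95% interval 0.05 to 1.62) did not pass adjustment over all genes (limma adjusted p = 1). This difference rests on 1 HP1ab_KO library, whose spread was assumed to be that of the other groups. The spread behind its interval was pooled over all 4 groups. It thus drew on the HP1ag_KO and WT livers that Dpy19l3 was chosen on, and the interval is not free of that choice. The libraries of these groups did not overlap, with HP1ab_KO above both HP1a_KO libraries, as in 32.1% of tested genes.

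**Figure D2:**
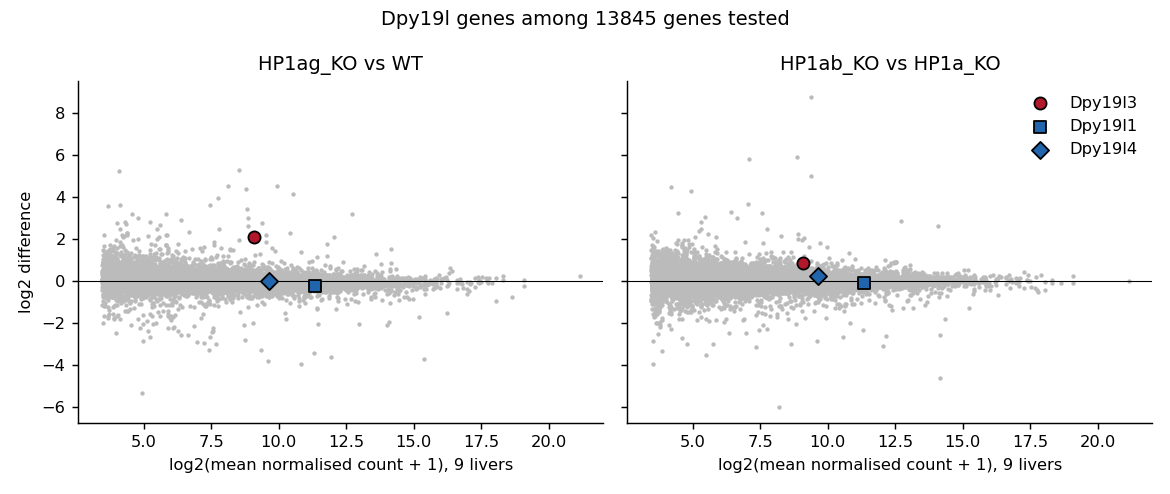
Log2 difference (vertical axis) against log2 of the mean normalised count + 1 (horizontal axis) for 13845 genes, as grey points, in HP1ag_KO against WT (left) and HP1ab_KO against HP1a_KO (right). Dpy19l3 lay at 2.08 and 0.84, while Dpy19l1 and Dpy19l4 lay between -0.23 and 0.23 in both panels.

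Dpy19l1 was the most abundant member and did not follow Dpy19l3. It had 1648, 2663 and 3031 normalised counts in HP1ag_KO replicates 1 to 3, 2496 in HP1ab_KO, and 2783 and 2533 in HP1a_KO, against 2922, 2995 and 2441 in WT. The HP1ag_KO and WT groups overlapped, and HP1ag_KO replicate 1 was the lowest of the 9 libraries. The difference was -0.23 ± 0.21 (SE) in HP1ag_KO against WT (95% interval -0.72 to 0.26, limma adjusted p = 0.824). Without HP1ag_KO replicate 1, which also stood apart on the second principal component, it was 0.03. In the other comparisons its limma adjusted p lay between 0.771 and 1. Against WT its 95% intervals, -0.61 to 0.48 in HP1a_KO and -0.84 to 0.54 in HP1ab_KO, still allow sizeable differences in either direction. In HP1ag_KO against HP1a_KO its difference was -0.16 (95% interval -0.71 to 0.38), and 0.10 without HP1ag_KO replicate 1.

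Dpy19l4 varied least of the 3 genes. It had 804, 888 and 815 normalised counts in HP1ag_KO, 822 in HP1ab_KO, and 666 and 737 in HP1a_KO, against 832, 769 and 897 in WT. Both HP1a_KO libraries lay below all 7 others, while HP1ag_KO and WT overlapped. The difference was 0.0064 ± 0.099 (SE) in HP1ag_KO against WT (95% interval -0.22 to 0.23, limma adjusted p = 0.992), an interval of 0.858 to 1.18 as a fold. It was -0.25 ± 0.11 in HP1a_KO against WT (95% interval -0.50 to 0.01, limma adjusted p = 0.496) and 0.25 ± 0.11 in HP1ag_KO against HP1a_KO (-0.0018 to 0.51, limma adjusted p = 0.311). Neither passed. Both HP1a_KO libraries lay below every WT library in 15.1% of tested genes, and below every HP1ag_KO library in 17.5%. The lower HP1a_KO value, 666, stood on 363 reads from the shallowest library.

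The fourth gene of the family in the table, Dpy19l2, was read once each in HP1ab_KO and in HP1a_KO replicate 2, and had 0 reads in the other 7 libraries. A count of 0 allows up to 3 reads, which is 2.67 to 5.50 normalised counts in those 7 libraries, and the exact Poisson intervals used for the other genes would end higher, at 3.28 to 6.77. No fold is given for it.

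Across the 9 livers the members differed widely in their spread. The highest library was 7.08 times the lowest for Dpy19l3, 1.84 times for Dpy19l1 and 1.35 times for Dpy19l4. The SD of log2 values over the livers was 0.98 for Dpy19l3, larger than in 97.4% of tested genes, and 0.13 for Dpy19l4, larger than in 18.4%. Over the 9 livers, which share their genotype groups, Pearson's r of log2 values with Dpy19l3 was -0.32 for Dpy19l1 and 0.38 for Dpy19l4.

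Levels can be compared between genes only per length, taken here as the union of annotated exons: 11.367 kb for Dpy19l3, 6.35 kb for Dpy19l1 and 8.101 kb for Dpy19l4. In WT, Dpy19l1 had 439 ± 47.4 normalised counts per kb, Dpy19l4 103 ± 7.88 and Dpy19l3 20.8 ± 4.85. In HP1ag_KO the same quantities were 385 ± 113 for Dpy19l1, 103 ± 5.67 for Dpy19l4 and 88.8 ± 26.0 for Dpy19l3. Dpy19l3 was thus the least abundant member in WT in every liver, and in HP1ag_KO it came near Dpy19l4. Its ratio per kb to Dpy19l4 was 0.690, 1.08 and 0.793 in HP1ag_KO, against 0.190, 0.176 and 0.236 in WT. In counts without length it was 0.968, 1.51 and 1.11, against 0.266, 0.246 and 0.331. Which transcript forms were present in liver was not tested, so values per kb depend on the annotated length.

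**Figure D3:**
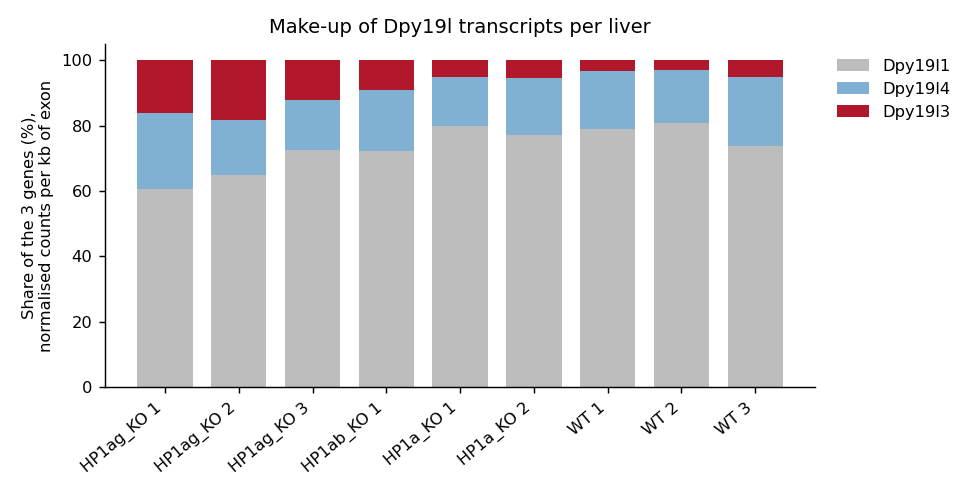
Share of each gene in the summed normalised counts per kb of Dpy19l1, Dpy19l4 and Dpy19l3 (vertical axis, percent) in each of the 9 livers, stacked to the whole. The Dpy19l3 share was 12.1 to 18.3% in HP1ag_KO and 2.86 to 5.01% in WT.

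Of the summed counts per kb of the 3 genes, Dpy19l3 made up 16.0, 18.3 and 12.1% in HP1ag_KO, 8.99% in HP1ab_KO, and 4.95 and 5.32% in HP1a_KO, against 3.35, 2.86 and 5.01% in WT. On this within-library scale HP1a_KO and WT overlapped, since the lower HP1a_KO value was below WT replicate 3. The sum of the 3 genes was 577 ± 130 per kb in HP1ag_KO and 562 ± 35.5 in WT, and these groups overlapped. The ratio of Dpy19l3 to Dpy19l1 per kb was 0.264, 0.282 and 0.167 in HP1ag_KO, against 0.0423, 0.0353 and 0.0679 in WT.

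The genes beside Dpy19l3 on chromosome 7 differed much less in size between HP1ag_KO and WT. Of the 5 nearest on each side in the table, 6 were tested. Tshz3 lay 944 kb away and the others at 17.9 to 129 kb. The log2 differences of the 6 in HP1ag_KO against WT lay between -0.14 and 0.17, beside 2.08 for Dpy19l3. In 0 of the 6 did the HP1ag_KO and WT libraries separate, where 6.46% of tested genes separated upward and 7.05% downward. The nearest, the zinc finger gene Zfp507 17.9 kb beyond the start of Dpy19l3, had 694 ± 77.2 normalised counts in HP1ag_KO and 614 ± 43.1 in WT (log2 difference 0.17 ± 0.12 SE, limma adjusted p = 0.768). Its highest library, at 778, was HP1ag_KO replicate 2, as for Dpy19l3, and its r with Dpy19l3 over the 9 livers was 0.67, at the upper end of the range of -0.67 to 0.67 over the 6. Pdcd5, a gene linked to programmed cell death 37.6 kb beyond the other end, had 478 ± 5.23 in HP1ag_KO and 463 ± 19.8 in WT. Ankrd27, an effector of endosomal trafficking, had 865 ± 78.0 in HP1ag_KO and 956 ± 91.1 in WT, and Nudt19, a coenzyme A hydrolase, 983 ± 168 and 1003 ± 103.

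**Figure D4:**
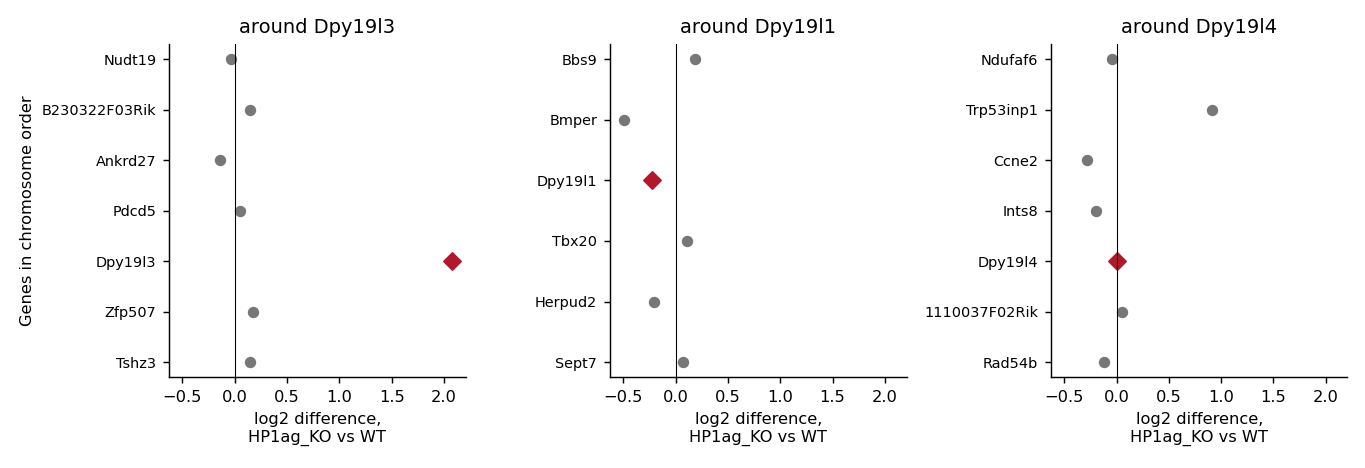
Log2 difference between HP1ag_KO and WT (horizontal axis) for each member, as a red diamond, and the tested genes among its 5 nearest on each side, as grey points in chromosome order from top to bottom. Dpy19l3 lay at 2.08, while its neighbours lay between -0.14 and 0.17.

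Tested neighbours of Dpy19l1 (5) differed by -0.50 to 0.18 between HP1ag_KO and WT, and those of Dpy19l4 (6) by -0.28 to 0.91. The HP1ag_KO and WT libraries separated in 1 of the 5 (Bmper, downward) and in 2 of the 6 (Trp53inp1 upward and Ints8 downward). Over all tested genes 6.46% separated upward and 7.05% downward. The upper end of the second range was Trp53inp1, a p53-induced gene named here after its values were seen, with 7203 in HP1ag_KO and 3768 in WT (limma adjusted p = 0.585).

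The genes of dolichol phosphate mannose supply make the sugar donor. All 14 were tested, and in HP1ag_KO against WT 7 were higher and 7 lower with 0 called. Their median log2 difference was -0.0030, beside -0.01 over all tested genes. Dpm1, the catalytic subunit of dolichol phosphate mannose synthase, had 280 ± 37.5 normalised counts in HP1ag_KO and 251 ± 42.1 in WT, and Pmm2, a phosphomannomutase, 1248 ± 99.7 and 1202 ± 108. Mpdu1, which is needed to use the donor, was at 731, 778 and 769 in HP1ag_KO and at 873, 821 and 794 in WT, so its groups did not overlap. It was 1 of 2 members separated downward, with Dolpp1, beside 7.05% of all tested genes. Pmm1, another phosphomannomutase, had the widest difference of the list (0.80 ± 0.29 SE, limma adjusted p = 0.602), at 51.6 ± 12.8 in HP1ag_KO and 29.3 ± 8.25 in WT. In HP1ab_KO against WT 4 members were higher and 10 lower (median -0.07, beside -0.0034), with 4 separated upward and 5 downward, beside 22.6% and 24.8% of all tested genes. In HP1a_KO against WT 6 were higher and 8 lower (median -0.03, beside -0.0016), with 1 separated upward (Srd5a3) and 5 downward (Dolk, Dolpp1, Dpm1, Dpm3 and Pmm2), beside 14.7% and 15.1%. The limma test called 0 of the 14 in both comparisons, as did DESeq2.

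Other enzymes that draw on the same donor were 5 higher and 9 lower of 14 tested in HP1ag_KO against WT (median -0.06, 0 called). They include the N-glycan mannosyltransferases Alg3, Alg9 and Alg12, GPI-anchor mannosyltransferases such as Pigm and the O-mannosyltransferases Pomt1 and Pomt2. Tmtc4, an O-mannosyltransferase of cadherins, had 162, 119 and 178 in HP1ag_KO, against 231, 215 and 209 in WT. Its groups did not overlap, with HP1ag_KO below WT as in 7.05% of tested genes. The difference of -0.53 ± 0.18 (SE) did not pass (limma adjusted p = 0.590). Pofut2 and B3galtl, which add fucose and glucose to thrombospondin repeats, had 499 ± 68.5 and 57.6 ± 13.2 in HP1ag_KO, against 505 ± 41.0 and 64.9 ± 24.99 in WT.

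Proteins with thrombospondin type 1 repeats, the largest class of known C-mannosylation targets, had 41 tested members of 62 listed. In HP1ag_KO against WT 26 were higher and 15 lower, with a median of 0.12 beside -0.01 over all tested genes. Limma called 0 of the 41 and DESeq2 1 (Adamts6), where DESeq2 called 0.716% of all genes. Libraries separated upward in 3 of the 41 (Adamts6, Adamts9 and Hmcn1) and downward in 2 (C8a and Thsd1), beside 6.46% and 7.05% of all tested genes. The complement genes C8a, C8b, C9 and C6 of the membrane attack complex were the most abundant, while C7 of the same complex averaged 11.8 normalised counts over the 9 livers. C8a had 25175, 36207 and 34315 normalised counts in HP1ag_KO, against 37445, 40774 and 36868 in WT. C6 had 763, 7696 and 5506 in HP1ag_KO, against 7162, 4692 and 5389 in WT. HP1ag_KO replicate 1 was the lowest of all 9 livers for C8a, C8b, C9 and C6, as it was for Dpy19l1. In HP1a_KO against WT 28 were higher and 13 lower (median 0.26), with 11 separated upward and 1 downward beside 14.7% and 15.1% of all tested genes and 0 called by limma or DESeq2. In HP1ab_KO against WT 20 were higher and 21 lower (median -0.0089). Libraries separated upward in 10 and downward in 8, beside 22.6% and 24.8% of all tested genes.

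Type I cytokine receptors had 22 tested members of 28 listed. In HP1ag_KO against WT 15 were higher and 7 lower (median 0.09 beside -0.01 over all tested genes, 0 called by limma). Libraries separated upward in 1 and downward in 1, beside 6.46% and 7.05% of all tested genes. In HP1ab_KO against WT 17 were higher and 5 lower (median 0.29, 0 called by limma), with 11 separated upward and 1 downward, beside 22.6% and 24.8% of all tested genes. In HP1a_KO against WT 16 were higher and 6 lower (median 0.28, 0 called by limma), with 7 separated upward and 1 downward, beside 14.7% and 15.1%. Prlr, the prolactin receptor, had 4807, 4715 and 3426 normalised counts in HP1ag_KO, 3128 in HP1ab_KO, and 4910 and 5321 in HP1a_KO, against 2368, 2363 and 3286 in WT. HP1ag_KO and HP1a_KO each lay above WT without overlap, as in 6.46% and 14.7% of tested genes, and HP1a_KO was the higher of the pair. The HP1ag_KO difference from WT of 0.69 ± 0.17 (SE) passed with DESeq2 (adjusted p = 0.0445), which called 0.716% of genes, but not with limma (adjusted p = 0.474). In HP1a_KO against WT it was 0.95 ± 0.19 (SE, limma adjusted p = 0.397), and DESeq2, which called 0.712% of genes there, called it too. Lifr, the receptor for leukaemia inhibitory factor and the most abundant of the list, had 22196 ± 8854 in HP1ag_KO and 23264 ± 4765 in WT.

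The genes whose log2 values followed Dpy19l3 most closely over the 9 livers were Zfp445, a KRAB zinc finger gene with a role in imprinting (Pearson's r = 0.97), Erap1, which trims peptides for MHC class I (0.96), Rpp40, a ribonuclease P subunit (0.96), Zfp84 (0.94) and Fap, a membrane serine protease (0.93). They were ranked among 13844 genes, the points share their genotype groups, and no p is given. Zfp445 had 2725, 3474 and 2884 in HP1ag_KO and 2489 in HP1ab_KO, against 1611, 1610.4 and 1643 in WT. Rpp40 had 448, 985 and 651 in HP1ag_KO and 364 in HP1ab_KO, against 131, 194 and 201 in WT. Fap had only 24.6 to 34.8 in HP1ag_KO and 6.67 to 10.7 in WT. HP1ag_KO replicate 2 was the highest library for Dpy19l3, Zfp445, Erap1, Rpp40 and Fap, but not for Zfp84. Reads of zinc finger genes may be shared with close copies. The lowest correlations were those of Ubap1 (-0.96), Tgfa (-0.95) and Clcn4-2 (-0.94). Among the HP1 genes, r with Dpy19l3 was -0.91 for Cbx3, -0.39 for Cbx5 and -0.17 for Cbx1. Cbx3 is the gene deleted in HP1ag_KO, and Dpy19l3 was chosen for its level in those livers. A negative r with Cbx3 was thus built in, and these values are a description only.

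**Figure D5:**
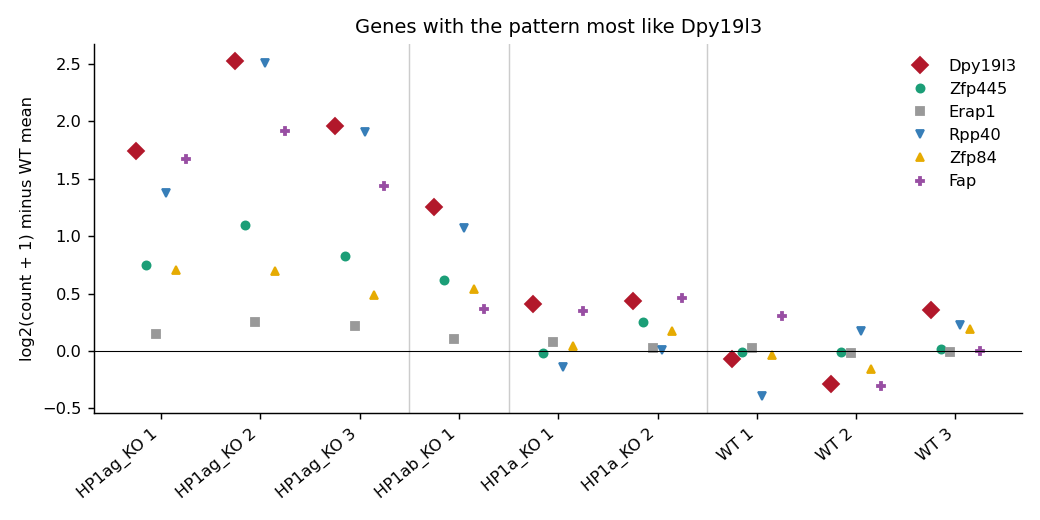
Log2(normalised count + 1) minus the mean of the 3 WT livers (vertical axis) for Dpy19l3 and the 5 genes with the highest Pearson's r with it, in each of the 9 livers (horizontal axis, grouped by genotype). HP1ag_KO points lay above those of WT for each of the 6 genes, by much less for Erap1 than for Dpy19l3.

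Markers of other liver cells also varied between the groups. Kupffer cell markers (11 of 12 in the table, none at 0) summed to 15216 to 22146 normalised counts in HP1ag_KO, 23721 in HP1ab_KO and 20685 to 24215 in HP1a_KO, against 13944 to 16571 in WT. Neutrophil markers (8 of 8) summed to 33.6 to 221 in HP1ag_KO, 176 in HP1ab_KO and 332 to 505 in HP1a_KO, against 51.5 to 66.7 in WT, with Mpo and Elane at 0 in HP1ab_KO and Camp at 0 in WT. Stellate cell markers (10 of 10) summed to 17734 to 19143 in HP1ag_KO, 20808 in HP1ab_KO and 20690 to 22052 in HP1a_KO, against 13246 to 19035 in WT. These sums overlapped between HP1ag_KO and WT, as did those of the hepatocyte, endothelial, cholangiocyte, erythroid and lymphocyte markers. Sums in HP1a_KO and in the HP1ab_KO liver lay above WT for the first 3 lists. The HP1ab_KO liver was also above WT for endothelial (24053, WT at most 22829), erythroid (18126, WT at most 16674) and lymphocyte (734, WT at most 720) markers. Its hepatocyte and cholangiocyte sums lay within the WT range. The part of these cells in the Dpy19l3 levels was not tested.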

How the data were processed

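Total RNA from 9 livers was depleted of ribosomal RNA before strand-specific library preparation, as the labels' protocols state. According to the submitters' processing notes, HTSeq 0.5.4p3, DESeq2 1.0.19, TopHat2 2.0.10, Bowtie2 2.1.0, CASAVA 1.8.2 and the build mm10 were used, in roles that are not stated. The signal that the authors deposited is each gene's read count over a size factor of its library, seen from the steps between values. Whole reads were recovered from these steps, and 100% of values came out whole within 0.1 read. Depth limits precision: intervals are exact Poisson intervals (95%) on the recovered reads and cover counting error only. The sources used here give no annotation release, filter or strand setting. Coordinates and exon lengths came from GENCODE for GRCm38, which held 98.0% of the 22701 gene identifiers. The chi-square per degree of freedom between libraries of 1 group was 49.0 to 125, above counting noise, so each library counted once.

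Groups came from the genotype labels. Values were tested as log2(value + 1) in a single limma 3.58.1 fit (R 4.3.3) of all 4 groups, using limma's mean trend and genes averaging 10 or more, with Benjamini-Hochberg adjustment over all 13845 and calls at an adjusted p under 0.05. The quasi-likelihood test of edgeR 4.0.16 and the Wald test of DESeq2 1.42.0 were run on the recovered reads. All were checked on simulated counts, with the same spread setting for every gene and no outlying library. That is a simpler case than these livers, so the check does not show how the tests perform on them. The genes named were the members, the HP1 genes, tested genes of the short lists and up to 6 most abundant genes of the longer ones, the neighbours of Dpy19l3 and the 5 highest and 3 lowest correlations with it (unnamed gene models left out). Genes outside this rule (Trp53inp1, Bmper, Ints8, Adamts6, Adamts9, Hmcn1, Thsd1, C7 and those listed for the order of the 4 groups) were named after their values were seen. The members, lists and tests were chosen with earlier results of these data known. Alternatives covered the pseudocount, filter, scaling, trend, count tests, groups in the fit, runs of neighbouring animal numbers, and each replicate left out. Python 3.11.15 with numpy 2.4.6, pandas 2.3.3, scipy 1.17.1 and matplotlib 3.10.9 did the rest.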

Additional observations from a re-analysis of the deposited data

How the results depend on the processing

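The log2 difference of Dpy19l3 kept its direction under each alternative run, at 1.85 to 2.26 in HP1ag_KO against WT, 1.11 to 1.43 in HP1ab_KO against WT, 0.28 to 0.60 in HP1a_KO against WT and 0.82 to 0.89 in HP1ab_KO against HP1a_KO. With a term for runs of neighbouring animal numbers it was 1.98 in HP1ag_KO against WT. The near-zero difference of Dpy19l4 in HP1ag_KO against WT turned negative with TMM scaling (-5.73e-05), with that term (-0.014) and when some libraries were left out (-0.049 to 0.061), as it turned positive in HP1ab_KO against WT (-0.071 to 0.040). Leaving out single libraries took Dpy19l1 to between -0.41 and 0.034 in HP1ag_KO against WT, -0.16 and 0.0044 in HP1a_KO against WT, and -0.34 and 0.098 in HP1ag_KO against HP1a_KO. No test of Dpy19l1 or Dpy19l4 passed under any alternative run. The cause of these turns was not tested.

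The count of genes that limma called, 0 in each comparison (1050, 1404, 512, 2240 and 324 at an unadjusted p under 0.05, in the order HP1ag_KO, HP1a_KO and HP1ab_KO against WT, then HP1ag_KO and HP1ab_KO against HP1a_KO), was 0 with edgeR and 99, 87, 11, 457 and 5 with DESeq2. It was 1 in HP1a_KO against WT with a pseudocount of 5, 7 in HP1ag_KO against HP1a_KO without the mean trend, 10 in HP1ab_KO against HP1a_KO in a fit of those groups, and 54 and 56 in HP1ab_KO against WT and HP1a_KO with no filter on low values. Leaving out each library gave 0 to 2, 0 to 5, 0 to 2, 0 to 5 and 0 to 1 in the same order. List medians moved by more than the spread between replicates in 28 of 360 alternatives. The labels give no replicate numbers shared between groups, and the term for runs of neighbouring animal numbers, which left 0 genes called in HP1ag_KO against WT, was the one blocked fit. Both HP1a_KO livers had neighbouring animal numbers, in a run that held no other group, and the number of the HP1ab_KO liver stood alone. In comparisons with these groups, animal number and genotype cannot be told apart. HP1ab_KO could not be left out, having 1 library. Depth limits the HP1a_KO values most, as replicate 1 held 16266423 reads.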

Other observations

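A separation of all 4 groups in the order HP1ag_KO, HP1ab_KO, HP1a_KO and WT, from high to low with no overlap, was found in 8 of 13845 tested genes, and the opposite order in 7. Dpy19l3 is 1 of the 8, which were named after their values were seen. The others were Adamts6, Ankrd49, BC089597, Erap1, the KRAB-type pseudogene Znf41-ps and the gene models Gm13251 and 2610305D13Rik. Adamts6, a metalloprotease with thrombospondin type 1 repeats, had 104, 169 and 148 normalised counts in HP1ag_KO, 90.3 in HP1ab_KO, and 86.2 and 68.0 in HP1a_KO, against 39.1, 66.7 and 49.6 in WT. Its log2 difference in HP1ag_KO against WT was 1.42. The order it was picked for already puts every HP1ag_KO library above every WT library, so this is a description with no test. Gm13251 had 252, 637 and 393 in HP1ag_KO, 236 in HP1ab_KO, and 134 and 104 in HP1a_KO, against 38.2, 101 and 89.0 in WT. As for Dpy19l3, its highest library was HP1ag_KO replicate 2. Erap1 differed little in size, at 4591 to 4945 in HP1ag_KO and 4116 to 4222 in WT.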
